A study of Homo sapiens with 24 samples.

Results

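Kinesins are motor proteins that use ATP to move along microtubules or to shorten them. One set builds and divides the mitotic spindle and is made mainly by cells that are about to divide, and these genes are transcribed late in the cell cycle. Another set carries vesicles, organelles and RNA through the cytoplasm and along axons, and a few members work in cilia. The kinesin motor genes were taken here as all genes whose symbol is KIF or KIFC followed by a number and, for some, a letter, and the rule found 42 of the 57820 genes in the count table. By their known roles 14 were placed with the mitotic kinesins, 17 with the transport kinesins and 11 with the others, which are ciliary, signalling or little studied motors and KIF2A, a microtubule depolymerase that works both in spindles and in neurons. CENPE, a spindle motor whose symbol does not follow the rule, was counted with the partners of the spindle.

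The 24 RNA libraries came from 8 groups of U2OS cells, a human osteosarcoma line, with 3 biological replicates per group. AID-DIvA U2OS cells, which carry a vector for the AsiSI restriction enzyme, were WT or ID3-knockout (KO) and were either untreated or exposed for a day to mocetinostat, an inhibitor of class I histone deacetylases (HDACs), and then kept for a further day in medium without the drug (recovered). Cells with the cell line field U2OS, again WT or KO, were either untreated or exposed to mocetinostat for a day and collected before any recovery (treated), and their library names also carry the word DivA. ID3 is a small protein that binds basic helix-loop-helix factors and keeps them from DNA, and the comparisons asked how KO and WT cells respond to the drug. No dose for this experiment and no clone number were given in the sources used here, and the stage of collection and the cell line field coincide, so that the stage and the line cannot be told apart.

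The libraries held 37878751 to 76906266 counts, of which 105099 to 295392 were counts of kinesin genes. ID3 itself was lower in the KO than in the WT libraries of every pair of groups with no overlap, at 29.3 to 67.3 counts scaled per library (CPM) against 47.9 to 129 CPM, and was detected in every KO library. Of 9 markers of the osteoblast lineage, SPARC was the highest, and SP7, COL1A2 and IBSP were below 1 TPM, the authors' level per gene length, in the mean of every group. In the untreated WT U2OS cells replicate 1 stood apart, with a chi-square of 103 and 91.1 per gene against its 2 partners, which differed from each other by 4.32. The class sums and most log2 fold changes of named kinesins that rest on it are given with and without it. Among recovered KO AID-DIvA cells replicate 1 differed from the others by 20.1 and 26.9 per gene against 4.57 between those. Recovered WT replicate 1 differed from its partners by 13.5 and 17.15 against 2.79 between those. In untreated KO AID-DIvA cells the replicates differed from each other by 11.9 to 27.3. CPM values are counts divided by the library total after TMM scaling, TPM values also take account of gene length, and all tests are edgeR quasi-likelihood tests with Benjamini-Hochberg adjustment over all genes tested, with a gene called at an adjusted p below 0.05.

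Genes that peak late in the cell cycle often carry a cell cycle genes homology region (CHR, searched as TTTGAA or TTCGAA) close to the start and a CCAAT box a short way upstream, both bound by complexes that repress or activate in step with the cycle. RefSeq windows on GRCh38.p14, from 250 bases before to 50 after a start, were at hand for 34 of the 42 members, in 43 windows. Searched on both strands, the CHR letters stood in the windows of 11 of the 14 mitotic kinesins (78.6%), of 1 of 12 transport kinesins (8.33%, KIF5B) and of 1 of 8 others (12.5%, KIF24), against 19.5% of all genes with a window. CCAAT, also read as ATTGG, stood in those of 11 mitotic (78.6%) and 4 transport kinesins (33.3%), against 39.7% of all genes. Both motifs stood in 71.4% of the mitotic and 8.33% of the transport kinesins, against 7.85% of all genes. A match describes these letters and does not show that a factor binds there.

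The 120 bases before the start are shown for mitotic kinesins with both motifs, for KIF20A, the mitotic gene with the largest log2 fold change after recovery, which has CCAAT letters only, and for the transport gene KIF5C, which has neither in this stretch. Capitals mark the CHR and CCAAT letters, on either strand, and each line reads 5′ to 3′ on the gene's strand. The stretches lie at chr15:69414229-69414348 (KIF23, plus strand), chrX:70289984-70290103 (KIF4A, plus), chr11:28108157-28108276 (KIF18A, minus), chr5:138178992-138179111 (KIF20A, plus) and chr2:148875107-148875226 (KIF5C, plus).
KIF23: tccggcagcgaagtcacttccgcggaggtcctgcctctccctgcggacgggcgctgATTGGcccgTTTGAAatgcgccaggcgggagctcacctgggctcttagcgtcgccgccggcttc
KIF4A: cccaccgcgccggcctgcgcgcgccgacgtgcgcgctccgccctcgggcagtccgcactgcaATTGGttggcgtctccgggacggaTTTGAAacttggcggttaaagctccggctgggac
KIF18A: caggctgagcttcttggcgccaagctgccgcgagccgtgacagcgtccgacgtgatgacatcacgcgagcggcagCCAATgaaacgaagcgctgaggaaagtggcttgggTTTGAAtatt
KIF20A: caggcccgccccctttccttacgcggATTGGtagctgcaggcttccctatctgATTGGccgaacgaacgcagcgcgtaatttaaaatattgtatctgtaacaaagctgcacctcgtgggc
KIF5C: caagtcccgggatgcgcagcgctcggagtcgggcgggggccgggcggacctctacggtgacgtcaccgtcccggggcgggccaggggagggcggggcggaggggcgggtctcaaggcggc
The CHR letters began 55 bases before the start in KIF23, 34 in KIF4A and 10 in KIF18A, and the CCAAT letters began 64, 58 and 45 bases before it. KIF20A had CCAAT letters at 94 and 67 bases before the start. KIF20A, KIF2C and KIF2B were the mitotic members without CHR letters in their windows.

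Levels per gene length put mitotic motors high in these dividing cells. Over all 24 libraries KIFC1, a minus-end motor that bundles spindle microtubules, had a mean of 211 TPM, KIF2C (MCAK), a depolymerase at centromeres, 199 TPM, and KIF5B, the widely expressed heavy chain of conventional kinesin, 188 TPM. These 3 were the highest in each of the 8 groups. In untreated WT AID-DIvA cells the order was KIF2C (269 ± 6.36 TPM, SD, n = 3), KIFC1 (251 ± 5.90) and KIF5B (225 ± 12.8), with no overlap between neighbours, whereas in recovered KO cells KIF5B (159 ± 18.3), KIFC1 (146 ± 6.39) and KIF2C (139 ± 4.06) overlapped. Further mitotic members were KIF18B (117 TPM), KIF23 (116 TPM), KIF20A (113 TPM), KIF4A (101 TPM) and KIF11 (99.5 TPM), and the next transport members KIF1C (90.9 TPM) and KIF3B (79.1 TPM). At the low end KIF19 averaged 2.47 TPM, KIF6 0.713 TPM and KIF26B 0.421 TPM. KIF2B had no count in any library, KIF4B had 3 to 20 counts, KIF25 3 to 36 and KIF12 0 to 32. KIF4B is an intronless near-copy of KIF4A, so that its few counts are uncertain.

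Summed over a class, the mitotic kinesins were lower after mocetinostat in all 4 pairs of groups, while the transport sum was lower in AID-DIvA and higher in U2OS cells. The mitotic sum was 1581 ± 34.9 TPM (SD, n = 3) in untreated and 944 ± 35.6 TPM in recovered WT AID-DIvA cells, and 1514 ± 53.6 and 795 ± 15.3 TPM in KO cells. Before recovery it was 1166 ± 78.9 and 965 ± 18.2 TPM in WT U2OS cells, and 1255 ± 15.8 and 1027 ± 13.3 TPM in KO cells. The transport sum was 635 ± 23.9 and 589 ± 11.8 TPM in WT and 656 ± 27.2 and 574 ± 8.60 TPM in KO AID-DIvA cells, but 607 ± 92.5 and 764 ± 19.0 TPM in WT and 646 ± 12.3 and 751 ± 15.3 TPM in KO U2OS cells. The ratio of the sums was 2.49 in untreated and 1.60 in recovered WT AID-DIvA cells and 2.31 and 1.39 in KO cells, and 1.94 and 1.26 in WT and 1.94 and 1.37 in KO U2OS cells. Without replicate 1 of the untreated WT U2OS cells, left out after the data were seen, the mitotic sum there was 1207 and 1217 TPM and the transport sum 651 and 668 TPM in the 2 other libraries, with a mean ratio of 1.84, so that both differences from the treated cells kept their direction. These sums weigh the abundant members most and carry no test. In such bulk samples fewer dividing cells and less of these RNAs per cell cannot be told apart.

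**Figure D1:**
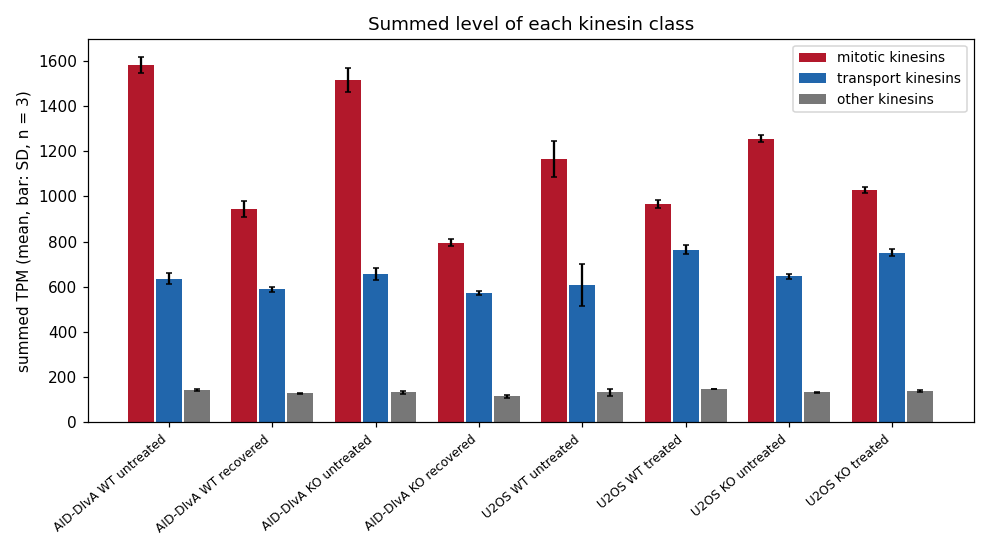
Summed level (TPM, vertical axis) of the 14 mitotic, 17 transport and 11 other kinesins in the 8 groups, with columns for the mean of 3 libraries and error bars for the SD. The mean mitotic sum falls from 1581 to 944 TPM in WT and from 1514 to 795 TPM in KO AID-DIvA cells.

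After recovery, treatment lowered nearly every mitotic kinesin in both genotypes. Of 39 members tested in WT AID-DIvA cells 12 rose and 17 fell, and of all 20289 genes tested 46.9% were called (23.9% higher and 23% lower). The 17 that fell held 12 of the 13 mitotic kinesins tested, the exception being KIF4B, 3 of 17 transport kinesins and 2 of 9 others, while 8 transport kinesins, 4 others and 0 mitotic kinesins rose. In KO cells 38 members were tested, of which 10 rose and 17 fell, against 40.1% of all 20362 genes tested (20.2% higher and 19.9% lower). There all 12 mitotic kinesins tested fell, with 2 transport kinesins and 3 others, and 7 transport kinesins and 3 others rose. The median log2 fold change of the mitotic kinesins was -0.61 in WT and -0.79 in KO cells, that of the transport kinesins 0.11 and 0.05, and that of all genes tested -0.00 and -0.02.

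KIF20A (MKLP2), which brings the chromosomal passenger complex to the midzone, changed most among the mitotic members after recovery. It lies at chr5:137514408-137523404 on hg19, the build of all gene positions given here. It was at 223, 223 and 209 CPM in untreated and at 87.5, 94.2 and 96.4 CPM in recovered WT AID-DIvA cells, a log2 fold change of -1.23 ± 0.0497 (SE, edgeR adjusted p = 6.92e-10). In KO cells it was at 200.1, 197 and 187 CPM untreated and 76.6, 72.8 and 72.9 CPM recovered, with -1.39 ± 0.0558 (edgeR adjusted p = 2.14e-07). The recovered libraries lay below the untreated ones in both genotypes, with no overlap. A log2 fold change below -1 with a call was found in 2.52% of all genes tested in WT and 2.56% in KO cells, and KIF20A was the one mitotic kinesin past it in WT cells.

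KIF14 (chr1:200520628-200589862), which works with citron kinase in cytokinesis, KIF18A (chr11:28042167-28129855), which damps the movement of chromosomes at the spindle equator, and KIF20B (chr10:91461367-91534700), a midbody motor, passed this threshold in KO cells. KIF14 stood at 122, 118 and 121 CPM untreated and 62.7, 65.9 and 61.9 CPM recovered in WT cells, and at 132, 133 and 117 CPM against 37.1, 52.6 and 57.4 CPM in KO cells. Its log2 fold change was -0.91 ± 0.0446 (edgeR adjusted p = 3.71e-09) in WT and -1.37 ± 0.148 (7.97e-05) in KO cells. Among the recovered KO libraries replicate 1 was the lowest for each of these genes. KIF18A was at 85.6, 82.8 and 87.1 CPM untreated and 52.0, 49.2 and 45.6 CPM recovered in WT cells, and at 86.8, 83.8 and 76.1 CPM against 26.4, 37.9 and 42.9 CPM in KO cells, with -0.79 ± 0.0529 (6.7e-08) and -1.19 ± 0.157 (0.00029). KIF20B was at 98.9, 102 and 106 CPM untreated and 62.6, 59.6 and 53.7 CPM recovered in WT cells, and at 113, 109 and 101 CPM against 35.7, 54.8 and 61.6 CPM in KO cells, with -0.79 ± 0.056 (1.16e-07) and -1.08 ± 0.172 (0.000914). No recovered library reached an untreated one for any of the 3 genes. Without recovered KO replicate 1 the KO values were -1.19 for KIF14, -1.003 for KIF18A and -0.86 for KIF20B, all still called.

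The motors that push the spindle poles apart and slide its microtubules fell by less than these. KIF11 (Eg5), the plus-end motor that makes the spindle bipolar, was at 218, 217 and 236 CPM untreated and 152, 148 and 137 CPM recovered in WT cells, and at 239.5, 240.3 and 225 CPM against 96.7, 125 and 139 CPM in KO cells. Its log2 fold change was -0.61 in WT and -0.96 ± 0.123 (edgeR adjusted p = 0.000247) in KO cells, and -0.81 without recovered KO replicate 1. KIF15, which backs up KIF11, had -0.57 in WT and -0.69 in KO cells, and KIFC1, which pulls inward, had -0.69 and -0.76. In the central spindle KIF23 (MKLP1), a subunit of centralspindlin, was at 342, 343 and 350.1 CPM untreated and 237, 224 and 224 CPM recovered in WT cells and at 346, 353 and 324 CPM against 198, 199 and 192 CPM in KO cells, with -0.59 and -0.80. KIF4A, a chromokinesin that sets the length of the midzone, had -0.69 and -0.79, and KIF22, the other chromokinesin, had -0.49 and -0.59. The tip depolymerases KIF2C and KIF18B had -0.45 and -0.65, and -0.60 and -0.63. All of these were called in both genotypes, and none of their recovered libraries overlapped the untreated ones.

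**Figure D2:**
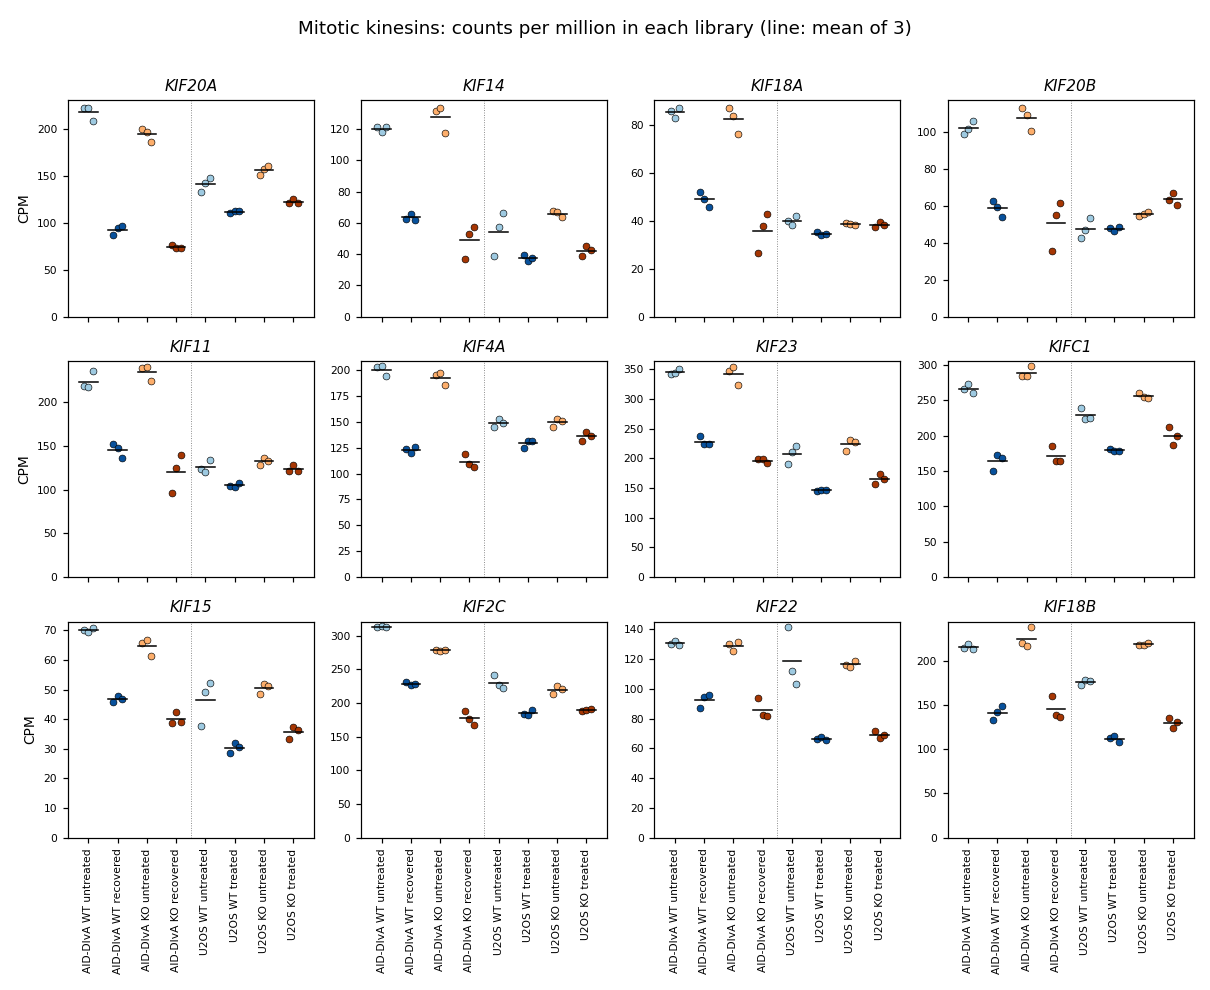
Level of mitotic kinesins (CPM, vertical axis from 0) in each of the 3 libraries of the 8 groups, with a line for the mean. The recovered AID-DIvA libraries lie below their untreated libraries for every gene drawn, for KIF20A at 72.8 to 96.4 CPM against 187 to 223 CPM.

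Among the transport kinesins the recovered cells had higher levels of KIFC2 and KIF1A. KIFC2, a minus-end motor known from dendrites, was at 33.1, 34.1 and 35.8 CPM untreated and 56.9, 64.6 and 67.7 CPM recovered in WT cells, and at 38.9, 36.7 and 46.1 CPM against 91.9, 79.4 and 77.6 CPM in KO cells. Its log2 fold change was 0.89 ± 0.0634 (edgeR adjusted p = 1.3e-07) in WT and 1.03 ± 0.0962 (3.1e-05) in KO cells. KIFC2 overlaps FOXH1 on the opposite strand, and the count of its own strand was 1.44 times the count from either strand used here. KIF1A (chr2:241653181-241759725), which carries synaptic vesicle precursors along axons, was at 84.9, 82.3 and 86.0 CPM untreated and 131, 121 and 122 CPM recovered in WT cells, and at 69.6, 63.1 and 77.4 CPM against 152, 126 and 127 CPM in KO cells, with 0.57 ± 0.046 (3.82e-07) and 0.95 ± 0.0916 (3.97e-05). Neither gene overlapped between recovered and untreated libraries. A call with a log2 fold change above 1 was made in 4.86% of all genes tested in WT and 4.9% in KO cells, and of the transport kinesins KIFC2 in KO cells was past it.

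KIF5B was the most abundant member that fell outside the mitotic class. It was at 415, 407 and 437 CPM untreated and 331, 306 and 293 CPM recovered in WT cells, and at 526, 525 and 474 CPM against 294, 339 and 347 CPM in KO cells, log2 fold changes of -0.43 ± 0.048 (edgeR adjusted p = 8.33e-06) and -0.64 ± 0.082 (0.000257). Recovered and untreated libraries did not overlap. KIF1C, a motor of Golgi and dense-core vesicles, and KIF3B, a subunit of kinesin-2, had -0.08 (0.453) and 0.02 (0.815) in KO cells, and KIF3B had 0.14 (0.0151) in WT cells, a call lost without untreated replicate 1 or 2. Among the others KIF24, a kinesin that restrains the growth of cilia, fell by 0.31 and 0.47 on the log2 scale and KIF2A by 0.29 and 0.31, while KIF9 rose by 0.57 and 0.76. Of the KIF9 counts by strand 34.7% lay on the opposite strand. The count of its own strand alone was 1.01 times the count from either strand that was tested. KIF24, KIF2A and KIF9 lie outside the rule for named genes and were chosen after their values were seen.

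Before recovery most mitotic kinesins fell too, with smaller medians, and KIF18A and KIF20B were not among them. No mitotic kinesin was called below -1 there, against 5.06% of all genes tested in WT and 5.77% in KO cells. In WT U2OS cells 40 members were tested, of which 14 rose and 13 fell, against 48.9% of all 21797 genes tested (26% higher and 22.9% lower). Of 12 mitotic kinesins 10 fell and 0 rose, of 17 transport kinesins 9 rose and 1 fell, and of 11 others 5 rose and 2 fell. Without untreated replicate 1, 16 rose and 18 fell, among them 11 of the 12 mitotic kinesins, 10 transport kinesins that rose and 5 that fell, against 66.4% of all genes tested (33.9% higher and 32.5% lower), whereas without treated replicate 1 or 2 the mitotic kinesins that fell were 6. In KO cells 17 of 39 members rose and 17 fell, against 69.9% of all 21176 genes tested (35.8% higher and 34% lower). There 9 of 12 mitotic kinesins fell and 1 rose, KIF20B, and 10 of 17 transport kinesins rose and 6 fell. The median log2 fold change was -0.33 and -0.35 for mitotic and 0.44 and 0.35 for transport kinesins, in WT and KO cells, against 0.01 and 0.00 for all genes tested.

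KIF20A was at 133, 143 and 148 CPM untreated and 111, 113 and 113 CPM treated in WT U2OS cells, and at 152, 158 and 161 CPM against 122, 126 and 121 CPM in KO cells, log2 fold changes of -0.32 ± 0.0705 (edgeR adjusted p = 0.00636) and -0.35 ± 0.0428 (1.94e-07). KIF18A was at 39.8, 38.0 and 41.9 CPM untreated and 35.3, 33.9 and 34.5 CPM treated in WT cells, with -0.20 ± 0.0715 (0.0512), and at 39.0, 38.8 and 38.3 CPM against 37.4, 39.5 and 38.2 CPM in KO cells, with -0.01 ± 0.048 (0.907). KIF20B was at 42.3, 47.2 and 53.5 CPM untreated and 47.8, 46.5 and 48.6 CPM treated in WT cells, with 0.01 ± 0.0937 (0.941), and at 54.4, 55.6 and 56.8 CPM against 63.2, 66.9 and 60.4 CPM in KO cells, with 0.20 ± 0.0481 (0.000898). The KIF20A groups did not overlap, KIF18A overlapped in KO cells and KIF20B overlapped in WT cells. KIF22 had the largest log2 fold change of the 12 in WT cells, where it was at 141, 112 and 103 CPM untreated and 66.5, 67.8 and 65.4 CPM treated, with -0.83 ± 0.122 (0.000978). In KO cells KIF22 was at 116, 115 and 118.5 CPM and 71.3, 66.8 and 68.9 CPM, with -0.75 ± 0.0442 (7.17e-13), and again the groups did not overlap. KIF18B followed with -0.64 and -0.75. Without untreated replicate 1 the WT values were -0.37 for KIF20A, -0.69 for KIF22 and -0.66 for KIF18B, all called, and KIF18A at -0.20 was then called too (0.000357), while KIF20B at -0.07 was not (0.205).

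The remaining mitotic members lay between these. KIF15 had log2 fold changes of -0.60 and -0.49, KIF23 -0.49 and -0.42, KIFC1 -0.34 and -0.36, KIF2C -0.30 and -0.21 and KIF4A -0.19 and -0.13, in WT and KO U2OS cells, and all of these were called. KIF14 was at 38.9, 57.4 and 66.6 CPM untreated and 39.3, 35.9 and 37.4 CPM treated in WT cells, with -0.52 ± 0.175 (edgeR adjusted p = 0.0397), and its low untreated value came from replicate 1. Without that library KIF14 had -0.71, and its call was lost when any other library of the comparison was left out. KIF4A in WT cells (0.0441) also lost its call without any one library other than untreated replicate 1. KIF11 had -0.25 ± 0.0714 (0.0196) in WT cells, lost without untreated replicate 3 or any treated replicate, and -0.09 ± 0.0434 (0.0636) in KO cells. KIF2C in WT cells lost its call without treated replicate 1 or 2, and KIF4A in KO cells without untreated replicate 2. Without untreated replicate 1 the WT values of the others were -0.73 for KIF15, -0.55 for KIF23, -0.31 for KIFC1, -0.26 for KIF2C, -0.22 for KIF4A and -0.27 for KIF11, all called. The KIF14 groups overlapped in WT cells.

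Before recovery KIF21B, KIF5C, KIF13B and KIF1A had the largest log2 fold changes of the transport kinesins in both genotypes. KIF21B (chr1:200938520-200992828), a motor of axons and dendrites that also dampens microtubule growth, was at 19.1, 24.8 and 23.5 CPM untreated and 85.1, 85.0 and 83.5 CPM treated in WT U2OS cells, and at 19.5, 18.2 and 19.3 CPM against 90.3, 82.2 and 86.1 CPM in KO cells. Its log2 fold change was 1.92 ± 0.105 (edgeR adjusted p = 7.38e-06) and 2.19 ± 0.0529 (1.14e-19). KIF5C (chr2:149632819-149883273), the heavy chain of conventional kinesin found mainly in neurons, was at 16.1, 24.1 and 24.3 CPM untreated and 74.6, 79.7 and 80.6 CPM treated in WT cells and at 18.3, 18.8 and 18.4 CPM against 98.2, 98.9 and 97.2 CPM in KO cells, with 1.87 ± 0.155 (5.32e-05) and 2.41 ± 0.0479 (4.49e-21). All treated libraries lay far above all untreated ones for both genes. KIF13B, which carries membrane cargo and binds scaffold proteins, was at 15.8, 23.5 and 24.1 CPM untreated and 50.9, 52.8 and 52.8 CPM treated in WT cells and at 20.3, 22.1 and 20.6 CPM against 58.2, 53.2 and 55.1 CPM in KO cells, with 1.31 ± 0.151 (0.000277) and 1.41 ± 0.0539 (2.8e-16). KIF1A was at 74.9, 84.7 and 81.9 CPM untreated and 165, 165 and 163 CPM treated in WT cells and at 79.3, 75.2 and 74.9 CPM against 151, 134 and 149.7 CPM in KO cells, with 1.04 ± 0.0731 (2.23e-05) and 0.93 ± 0.0496 (1.09e-13). Neither KIF13B nor KIF1A overlapped between treated and untreated libraries. Without untreated replicate 1, which was the lowest of the 3 untreated WT libraries for all 4 genes, the WT values were 1.81 for KIF21B, 1.70 for KIF5C, 1.14 for KIF13B and 0.99 for KIF1A, all called. A call above 1 was made in 13.6% of all genes tested in WT and 14.6% in KO cells.

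KIF5C, KIF21B and KIF13B had smaller log2 fold changes in recovered AID-DIvA cells than in treated U2OS cells. KIF1A, with the values given above, did not in KO cells, where its 2 values were similar. In AID-DIvA cells KIF5C was at 18.6, 19.9 and 20.1 CPM untreated and 18.9, 20.4 and 22.1 CPM recovered in WT cells, with a log2 fold change of 0.08 ± 0.067 (edgeR adjusted p = 0.36), and at 18.2, 18.0 and 16.0 CPM against 25.1, 23.0 and 24.01 CPM in KO cells, with 0.46 ± 0.073 (0.000838). KIF21B was at 21.9, 21.6 and 20.2 CPM against 23.3, 25.9 and 29.2 CPM in WT cells, with 0.31 ± 0.0768 (0.00442), and at 17.0, 16.9 and 18.2 CPM against 35.1, 28.7 and 29.4 CPM in KO cells, with 0.83 ± 0.083 (4.67e-05). KIF5C overlapped between the groups in WT cells only, and KIF21B in neither genotype. KIF13B had 0.36 and 0.25, the KO call being lost without untreated replicate 1 or 2 or recovered replicate 2.

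**Figure D3:**
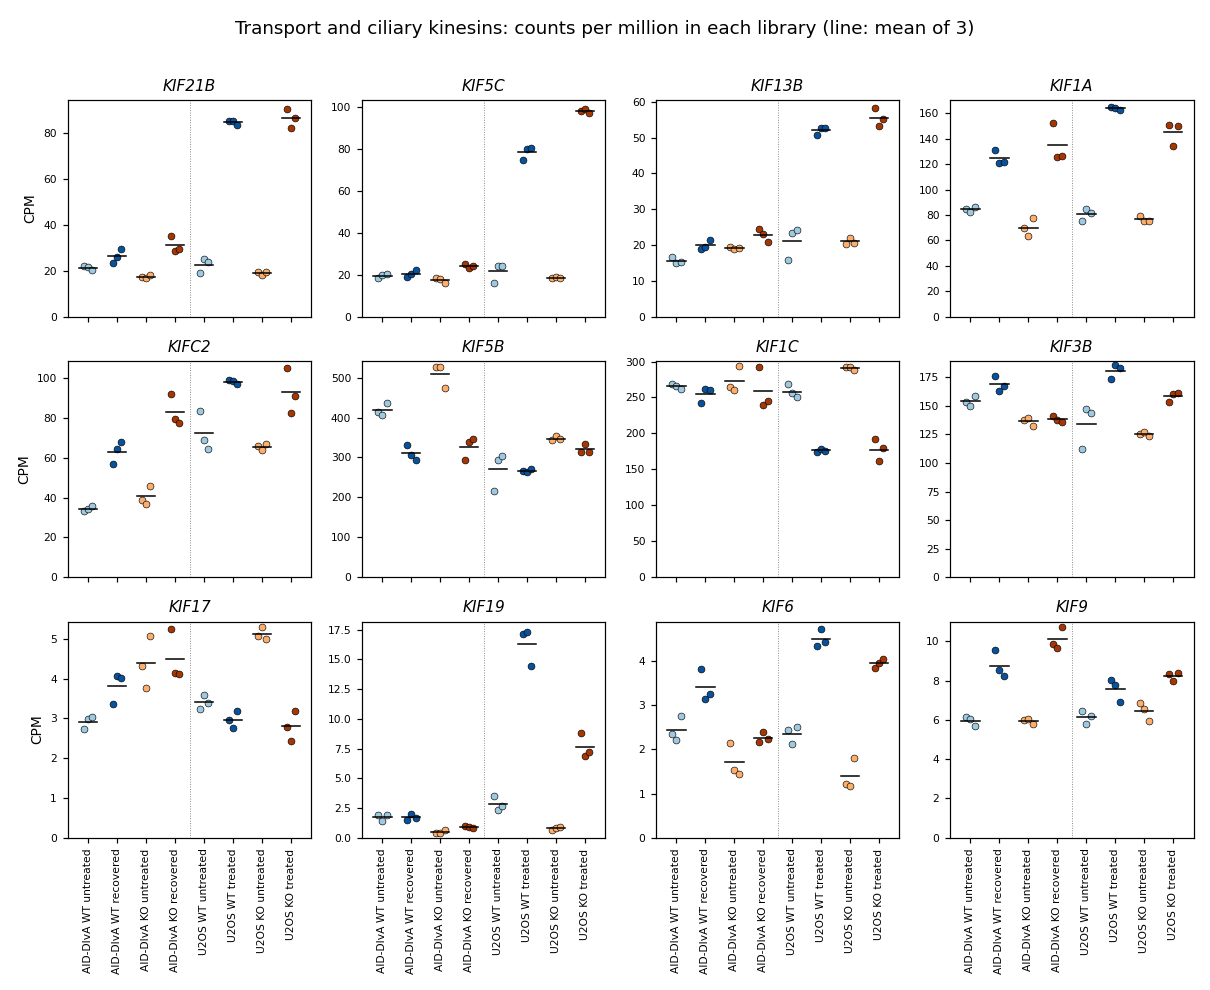
Level of transport and other kinesins (CPM, vertical axis from 0) in each of the 3 libraries of the 8 groups, with a line for the mean. KIF5C and KIF21B lie between 74.6 and 98.9 CPM in treated U2OS libraries and at most 35.1 CPM in every other library.

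Other transport kinesins rose less. In WT and KO U2OS cells KIF5A, the neuronal heavy chain, had log2 fold changes of 0.68 and 0.72, and KIF3A and KIF3B, the motor pair of kinesin-2, had 0.66 and 0.81, and 0.44 and 0.35. KIF1B, a motor of mitochondria and synaptic vesicles, had 0.67 and 0.57, and KIFC2 had 0.45 and 0.51. All of these were called in both genotypes, and KIF3B in WT cells lost its call without treated replicate 2. Without untreated replicate 1 the WT values were 0.44 for KIF1B, 0.47 for KIF5A, 0.53 for KIF3A, 0.32 for KIF3B and 0.56 for KIFC2, all called. KIF1C was at 268, 256 and 250.5 CPM untreated and 175, 179 and 175 CPM treated in WT cells and at 292, 292 and 288 CPM against 192, 161 and 180.1 CPM in KO cells, with -0.54 ± 0.069 (edgeR adjusted p = 0.00043) and -0.70 ± 0.052 (3.06e-11), and no overlap. KIF1C was the one transport kinesin that fell in WT cells, whereas without untreated replicate 1 it had -0.51 and 4 further transport kinesins were called lower, among them KIF5B (-0.16). KIF5B had -0.01 (0.943) in WT and -0.11 (0.026) in KO cells, where the call was lost without untreated replicate 2 or 3 or treated replicate 1 or 3. KIF5A, KIF3A and KIF1B lie outside the rule for named genes and were chosen after their values were seen.

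KIF19, a motor that sets the length of motile cilia, rose most of the members with more than a few counts. It was at 3.48, 2.36 and 2.65 CPM untreated and 17.1, 17.3 and 14.5 CPM treated in WT U2OS cells, a log2 fold change of 2.53 ± 0.163 (edgeR adjusted p = 1.56e-05). In KO cells it was at 0.679, 0.810 and 0.909 CPM and 8.85, 6.86 and 7.19 CPM, with 3.25 ± 0.141 (2.44e-15). The treated libraries lay above the untreated ones in each genotype, and the treated KO libraries also lay below the treated WT ones. KIF6, a motor of ciliated cells, was at 2.43, 2.12 and 2.50 CPM untreated and 4.36, 4.72 and 4.44 CPM treated in WT cells, with 0.95 ± 0.12 (0.00042), and at 1.22, 1.18 and 1.80 CPM against 3.85, 3.96 and 4.06 CPM in KO cells, with 1.502 ± 0.143 (2.71e-09). KIF6 did not overlap between treated and untreated libraries in either genotype. Without untreated WT replicate 1 the WT values were 2.71 for KIF19 and 0.98 for KIF6, both called. KIF12 was called in WT cells on 23, 14 and 32 counts treated against 0, 0 and 0 untreated, and rests on few counts.

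**Figure D4:**
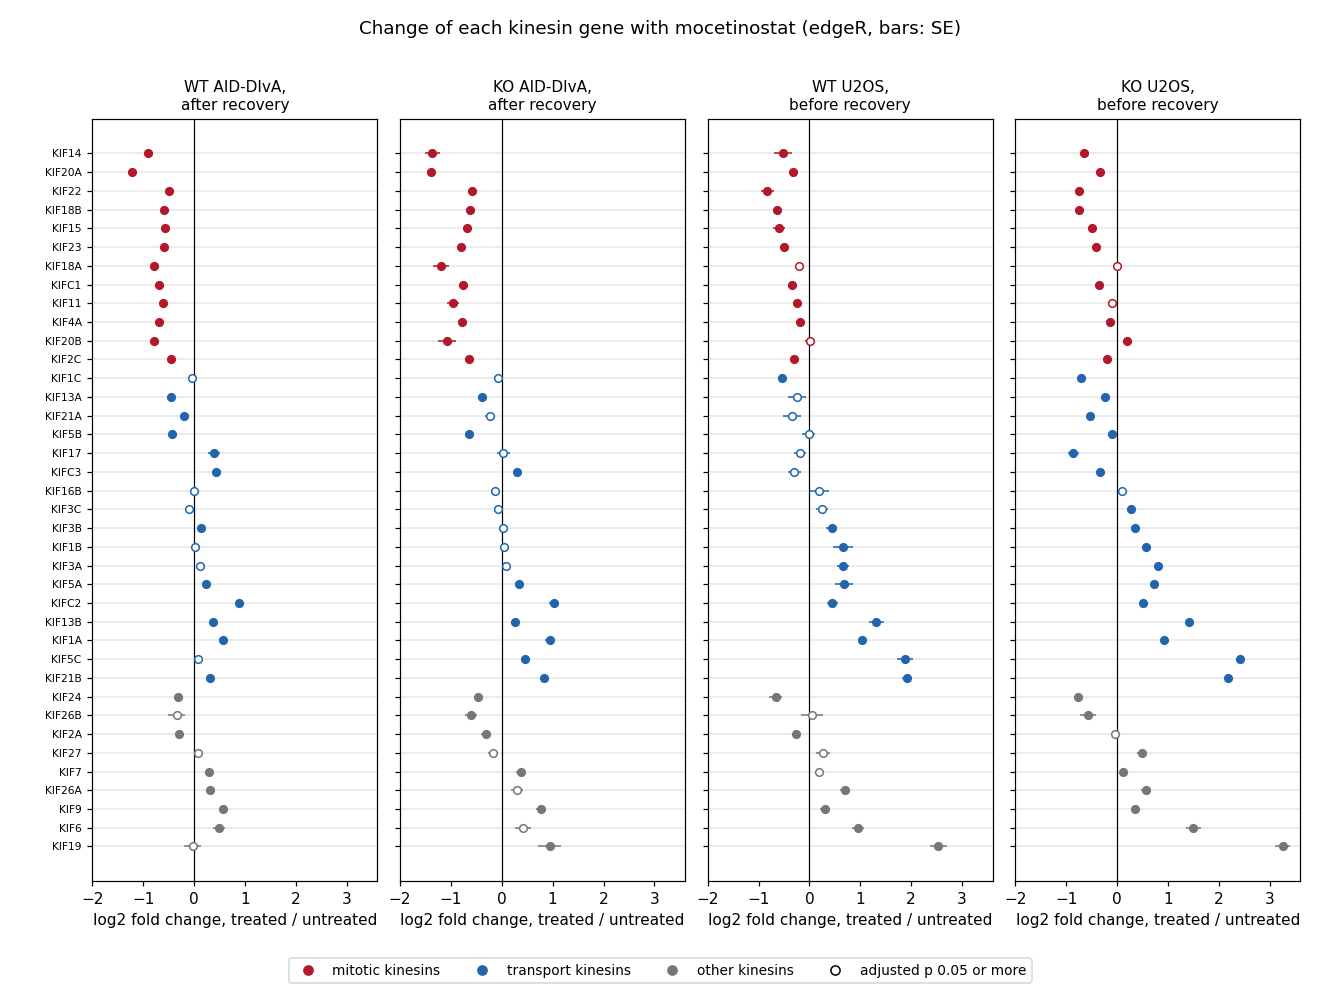
Log2 fold change with mocetinostat (horizontal axis) of the kinesins in the 4 treatment comparisons, with SE bars, classes by colour and open points for genes that were not called. KIF4B, KIF12 and KIF25, with few counts, are not drawn. Mitotic kinesins lie mostly below 0, at a median of -0.79 in KO AID-DIvA cells, and KIF5C, KIF21B and KIF19 lie furthest above it in U2OS cells.

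With all libraries in the tests, untreated KO and WT cells differed in 3 members in the same direction in both lines. In AID-DIvA cells 6 of 39 members were higher and 12 lower in KO cells, against 36.7% of all 20441 genes tested (18.6% higher and 18.1% lower), and in U2OS cells 2 of 39 were higher and 2 lower, against 15.2% of 20621 (6.56% higher and 8.63% lower). KIF19 was at 1.92, 1.41 and 1.88 CPM in WT and 0.378, 0.410 and 0.661 CPM in KO AID-DIvA cells, with a log2 fold change of -1.89 ± 0.208 (edgeR adjusted p = 2.64e-06). In U2OS cells, with the values given above, it had -1.82 ± 0.206 (0.00134). The KO libraries lay below the WT libraries in both lines, and a call below -1 was made in 2.3% of all genes tested in AID-DIvA and 2.84% in U2OS cells. KIF6 was at 2.34, 2.22 and 2.77 CPM in WT and 2.15, 1.53 and 1.44 CPM in KO AID-DIvA cells, with -0.55 (0.0082, lost without WT replicate 3), and had -0.75 (0.0403) in U2OS cells, where the call was lost without WT replicate 2 or 3 or KO replicate 1 or 2. KIF17 (chr1:20990507-21044510), a kinesin-2 of dendrites and photoreceptor cilia, was at 2.73, 2.99 and 3.04 CPM in WT and 4.33, 3.76 and 5.08 CPM in KO AID-DIvA cells, with 0.55 ± 0.116 (0.00139), and at 3.24, 3.58 and 3.39 CPM against 5.08, 5.30 and 4.99 CPM in U2OS cells, with 0.59 ± 0.102 (0.00837, lost without KO replicate 2). Of the KIF17 counts 10.5% lay on the opposite strand, and KIF17 did not overlap between the genotypes in either line. Without WT replicate 1 the U2OS values were -1.63 for KIF19, -0.71 for KIF6 and 0.55 for KIF17, all called.

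Between untreated genotypes few mitotic kinesins were called with all libraries in the tests. The shares called lower in KO AID-DIvA and higher in KO U2OS cells were near those of all genes tested. In AID-DIvA cells 3 of 13 were lower in KO cells, against 18.1% of all genes tested, and 0 higher, KIF20A by -0.19 (edgeR adjusted p = 0.00311), KIF2C by -0.19 (0.000939) and KIF15 by -0.14 (0.0201, lost without any one WT replicate or KO replicate 1). In U2OS cells 1 of 12 was higher, against 6.56% of all genes tested, namely KIF18B at 172, 178 and 177 CPM in WT and 218, 217 and 220.3 CPM in KO cells, with 0.31 ± 0.0642 (0.0165), a call lost when any library other than WT replicate 1 was left out. Without WT replicate 1 KIF18B had 0.30, and the U2OS comparison called 10 members higher and 12 lower, of which 5 were mitotic kinesins higher in KO cells, against 41.1% of all genes tested (20.5% higher and 20.6% lower). It called 1 member without KO replicate 2. Of the 17 transport kinesins in AID-DIvA cells, 6 had a lower and 5 a higher level in KO cells, among the latter KIF5B (0.25), KIF13B (0.28) and KIFC2 (0.22), and among the former KIF1A (-0.29), KIF21B (-0.31), KIF3B (-0.19) and KIF5C (-0.19). The KIFC2 call was lost without any one WT replicate or KO replicate 3, and without the latter its value was 0.10, and the KIF5C call without WT replicate 2 or 3. In U2OS cells without WT replicate 1, KIF5B (0.22) was called higher in KO cells. KIF1A (-0.12), KIF21B (-0.35), KIF3B (-0.22) and KIF5C (-0.39) were called lower there, as in AID-DIvA cells. KIF13B was then called in the other direction than in AID-DIvA cells (-0.18), and KIFC2 was not called (-0.02).

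The interaction of genotype and treatment, which tests whether the KO response differs from the WT response, was called for 1 of 39 members in AID-DIvA cells, against 1.21% of all 21265 genes tested. That member was KIF21B, which rose more in KO cells, by 0.53 ± 0.121 on the log2 scale (edgeR adjusted p = 0.0415). It lost the call without 8 of the 12 libraries in turn, with values of 0.45 to 0.62. No mitotic kinesin was called, with 5 at an unadjusted p below 0.05. DESeq2 called 0 mitotic kinesins and 2 members in all, KIF21B and KIF5C, and edgeR without a filter on low counts called 7, of which 3 were mitotic kinesins that fell more in KO cells. All 13 mitotic values lay below 0, with a median of -0.16, against a median of -0.02 over all genes tested and 11407 of 21265 values below 0. The lowest were KIF14 (-0.45, adjusted p = 0.309), KIF18A (-0.39, 0.449), KIF11 (-0.34, 0.39) and KIF20B (-0.28, 0.673), and recovered KO replicate 1 had the lowest level of each in its group. Without that library the values were -0.28 for KIF14, -0.21 for KIF18A, -0.196 for KIF11 and -0.08 for KIF20B, with adjusted p of 0.0945 to 0.837, and the mitotic median was -0.17 with all 13 values again below 0. The 13 values come from the same libraries and are not independent, and that of KIF4B rests on few counts. Their shared sign was not tested.

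In U2OS cells the interaction was called for 1 of 40 members, KIF17, against 2.15% of all 22647 genes tested (1.1% higher and 1.06% lower, and 0.23% lower by more than 1 on the log2 scale). KIF17 stood at 2.97, 2.76 and 3.19 CPM in treated WT and 2.79, 2.44 and 3.18 CPM in treated KO cells, so that the higher untreated KO level given above was not there after treatment. Its response was -0.18 (edgeR adjusted p = 0.228) in WT and -0.86 ± 0.109 (3.05e-07) in KO cells, a difference of -0.67 ± 0.158 (0.0427), lost without 9 of the 12 libraries in turn, with values of -0.77 to -0.58. Without untreated WT replicate 1, which stood apart, 8 members were called higher and 1 lower, against 9.03% of all genes tested. Among them were KIF5C (0.71, 3.93e-10), KIF21B (0.38, 0.000242) and KIF17 (-0.64, 0.00872). With all 12 libraries KIF5C had 0.54 ± 0.16 (0.113) and KIF21B 0.27 ± 0.12 (0.323).

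**Figure D5:**
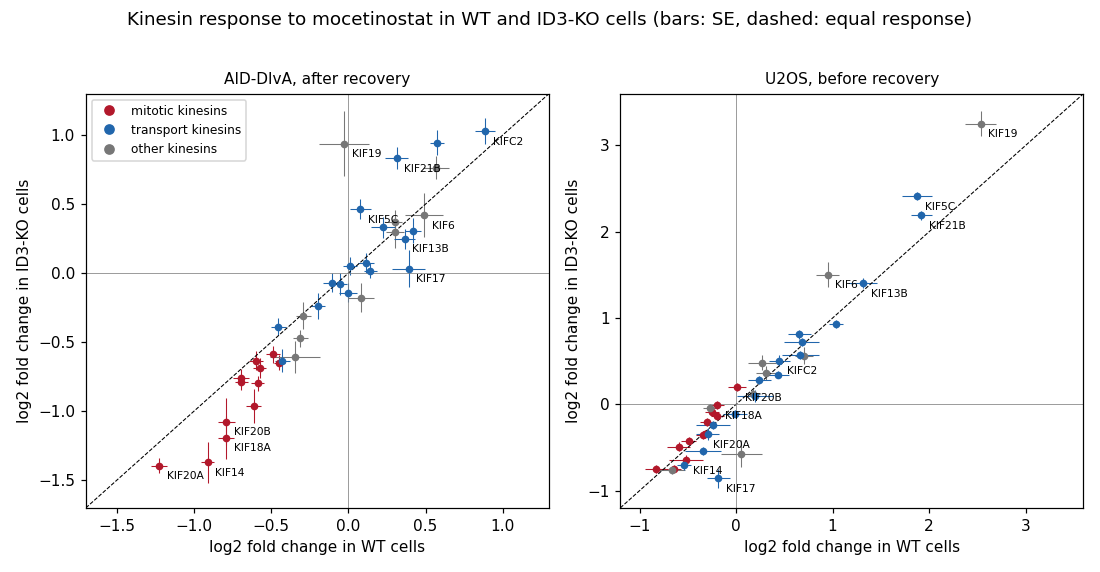
Log2 fold change with mocetinostat in KO cells (vertical axis) against WT cells (horizontal axis) in AID-DIvA and in U2OS cells, with a point for each kinesin other than KIF4B, KIF12 and KIF25, SE bars and a dashed line of equal response. Mitotic kinesins in AID-DIvA cells lie below the line, with KIF14 at -0.91 in WT and -1.37 in KO cells, and KIF21B lies above it.

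The responses of recovered and of not yet recovered cells were compared by an interaction of stage and treatment, in which the stage and the line cannot be told apart. It was called for 21 of 41 members in WT cells, 4 higher and 17 lower, against 42.2% of all 22238 genes tested (20.5% higher and 21.7% lower), and for 29 of 39 in KO cells, 7 higher and 22 lower, against 52.5% of 21947 (24.8% higher and 27.7% lower). In WT cells 4 members were below -1, against 10.2% of all genes tested, and in KO cells 8 were, against 11.7%, and 0 were above 1, against 5.8%. Of the mitotic kinesins 6 of 13 were called lower in WT and 9 of 12 in KO cells and 0 higher in either, with KIF20A at -0.91 in WT and -1.06 in KO cells, KIF20B at -0.81 and -1.29 and KIF18A at -0.60 and -1.196, all called by edgeR. The mitotic values above 0 were KIF22 (0.33 and 0.15) and KIF18B (0.04 and 0.11) in both genotypes and KIF15 (0.02) in WT cells, none of them called. Those of KIF5C (-1.80 and -1.96), KIF21B (-1.62 and -1.36), KIF13B (-0.96 and -1.16) and KIF19 (-2.57 and -2.32) were lower too, all called. KIF1C (0.48 and 0.62) and KIFC2 (0.43 and 0.52) had the opposite sign. Without untreated WT U2OS replicate 1 the WT comparison called 29 members, against 52% of all genes tested, among them 8 mitotic kinesins that were lower and KIF22, which was higher (0.19, edgeR adjusted p = 0.0179). The WT values without that library were -0.87 for KIF20A, -0.73 for KIF20B, -0.60 for KIF18A, -1.63 for KIF5C, -1.51 for KIF21B, -0.79 for KIF13B, -2.76 for KIF19, 0.45 for KIF1C and 0.31 for KIFC2, all called.

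Most partners of the spindle motors fell after recovery in both genotypes. The shares of all genes tested that rose and fell, against which the lists here and in the following paragraphs stand, were 23.9% and 23% in recovered WT, 20.2% and 19.9% in recovered KO, 26% and 22.9% in treated WT and 35.8% and 34% in treated KO cells. The treated WT counts of these lists are given only with untreated WT U2OS replicate 1 in the test. Without that library 66.4% of all genes tested were called there, against 48.9% with it. Of 21 partners of the spindle and midzone, among them TPX2, PRC1 and Aurora kinases, 20 fell and 0 rose in recovered WT and in recovered KO AID-DIvA cells, with medians of -0.62 and -0.86. Before recovery 12 fell and 0 rose in WT U2OS cells and 16 fell and 5 rose in KO cells, with medians of -0.33 and -0.32. Those below -1 in recovered KO cells included the kinetochore motor CENPE (-1.30), the abscission factor CEP55 (-1.14), the kinases AURKA (-1.10), PLK1 (-1.03) and CIT (-1.03), and the passenger protein CDCA8 (-1.02). Of 50 genes of a G2/M phase list with its kinesins removed, 48 fell in recovered WT and 48 in recovered KO cells (medians -0.66 and -0.92), against 22 and 33 in treated WT and KO U2OS cells (-0.19 and -0.23). For 43 S phase genes the order was the other way, with 11 and 9 that fell after recovery and 31 and 34 before it, and 19 and 9 that rose after recovery and 0 and 3 before it. Their part in the kinesin results was not tested.

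In the transport machinery some genes rose and some fell in each treatment comparison. Of 24 dynein and dynactin genes, the motor that moves opposite to most kinesins, 5 rose and 9 fell in recovered WT AID-DIvA cells and 5 rose and 7 fell in treated WT U2OS cells. In KO cells 2 of 23 rose and 8 fell after recovery, and 8 rose and 11 fell before it. The dynein and dynactin genes called beyond a log2 fold change of 1 both fell. They were DYNC1I1 in treated WT U2OS cells (-1.37) and NDE1 in recovered KO AID-DIvA cells (-1.04). Of 18 genes of intraflagellar transport, the cargo trains of cilia, 4 rose and 8 fell in recovered WT cells, 1 and 6 in recovered KO cells, 5 and 3 in treated WT cells and 9 and 5 in treated KO cells. Of 22 kinesin light chains and cargo adaptors 7 rose and 4 fell, 7 and 3, 9 and 2, and 13 and 6 in the same order. The adaptor MAPK8IP2 (JIP2), known from neurons, had log2 fold changes of 2.28 and 2.74 in recovered and 5.48 and 6.43 in treated WT and KO cells. Its level was low after recovery, with averages of 1.12 CPM in the WT and 0.873 CPM in the KO comparison. HAP1, the huntingtin-associated adaptor, had 3.41 and 3.68, the light chain KLC3 2.38 and 2.38 and FEZ1, a kinesin-1 adaptor of axons, 1.42 and 1.95 in treated WT and KO cells.

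Most neuronal markers rose in all 4 treatment comparisons, also in recovered WT cells, where KIF5C was not called. Of 9 such markers tested 8 rose in each of them, against 20.2% to 35.8% of all genes tested, and 1 fell in all but the WT U2OS comparison. Their summed level was 37.4 to 38.7 TPM in untreated and 157 to 173 TPM in treated WT U2OS libraries, and 24.8 to 25.4 and 133 to 137 TPM in KO libraries. In AID-DIvA cells it was 30.4 to 32.3 untreated and 60.6 to 62.1 TPM recovered in WT and 22.4 to 23.1 and 49.5 to 49.8 TPM in KO libraries. ELAVL3 was under 1 TPM throughout, and the synaptic vesicle gene SYP had log2 fold changes of 2.08 and 2.83 after recovery and 2.78 and 3.61 before it, in WT and KO cells. Markers of motile cilia, beside which KIF19 and KIF6 rose, summed to 7.15 to 9.15 TPM in untreated and 18.9 to 20.4 TPM in treated WT U2OS libraries and to 6.48 to 6.83 and 15.05 to 15.9 TPM in KO libraries, and 4 of 8 rose in WT and 4 of 7 in KO cells. The sums in treated cells rest largely on 1 gene, DNAI1, with a mean of 10.3 TPM in WT and 8.61 TPM in KO cells. Its log2 fold changes were 2.46 and 2.67. FOXJ1, the factor that directs motile cilia, and DNAH9 and TEKT1 were under 1 TPM in all groups. Of the osteoblast markers 2 rose and 4 fell of 8 in treated WT U2OS cells and 3 rose and 4 fell in KO cells. The part of these markers in the kinesin values was not tested.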

How the data were processed

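The 42 kinesin genes were found by symbol, and the members and all gene lists were chosen with earlier results of these data known. Libraries of total RNA were stranded and sequenced from both ends. The authors mapped fragments with STAR (genome hg19/GRCh37) and assigned them to genes with featureCounts, versions not given in the sources used here. They deposited counts per gene without normalization, from either strand and by strand, and the counts from either strand were tested. The deposited TPM values, scaled by the authors to gene length and library, gave levels, and their FPKM values (a form of RPKM) an alternative. Where the treatment field went against the title, in all AID-DIvA libraries, the title was followed.

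Tests were run with edgeR 4.0.16 under R 4.3.3 (TMM, filterByExpr, a robust quasi-likelihood fit, Benjamini-Hochberg adjustment). Each treatment or genotype comparison used its own 6 libraries and each interaction 12. SE was taken as log2 fold change over the root of F. CPM values use TMM factors over all 24 libraries. At these depths the spread between replicates sets the precision of genes with many counts. Counting noise adds to it for genes with few, such as KIF17 (133 to 314 counts per library) and KIF6 (63 to 337), and limits genes under 1 CPM. The G2/M and S phase lists came from Seurat 5.3.0. Named genes were the mitotic kinesins with a mean of at least 1 TPM, other members called with a log2 fold change beyond 1 at 1 CPM or more, members with a called genotype interaction and the 3 highest transport kinesins; genes of other lists were named where called beyond 1, and exceptions are marked. Alternatives were DESeq2 1.42.0, its size factors, other filters, reverse-strand counts, a replicate block, all 4 groups of a line in one fit, a fold threshold, KIF2A and KIF24 as mitotic kinesins, and each library left out. The steps were tested on simulated counts. Promoter windows are from RefSeq, and no protein sequences were used.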

Additional observations from a re-analysis of the deposited data

Results flagged for a closer look

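The response of KIF21B to treatment in AID-DIvA cells differed between genotypes by 0.53 on the log2 scale (KO minus WT), and that of KIF17 in U2OS cells by -0.67, in edgeR tests of the interaction, and both calls depended on single libraries as given above.

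Part of the kinesins responded differently in recovered AID-DIvA and in not yet recovered U2OS cells, in a comparison where the stage and the line cannot be told apart. In WT cells 21 of 41 members were called, against 42.2% of all genes tested. The mitotic kinesins had interaction values (recovered minus before recovery, log2) of -0.91 for KIF20A, -0.81 for KIF20B, -0.60 for KIF18A, -0.51 for KIF4A, -0.37 for KIF11 and -0.36 for KIFC1. KIF19 had -2.57 and KIF6 -0.46. The transport kinesins under the rule for named genes had -1.80 for KIF5C, -1.62 for KIF21B, -0.96 for KIF13B, -0.47 for KIF1A and -0.42 for KIF5B, and 0.43 for KIFC2, 0.48 for KIF1C and 0.57 for KIF17. Members outside that rule are in the counts but not listed. Among them KIFC3 (0.56), KIF1B (-0.44) and KIF3A (-0.43) were called in the fit without untreated WT U2OS replicate 1.

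In KO cells 29 of 39 members were called, against 52.5% of all genes tested. The mitotic values were -1.29 for KIF20B, -1.196 for KIF18A, -1.06 for KIF20A, -0.88 for KIF11, -0.74 for KIF14, -0.66 for KIF4A, -0.45 for KIF2C, -0.41 for KIFC1 and -0.38 for KIF23. KIF19 had -2.32 and KIF6 -1.09. The transport kinesins under the rule for named genes had -1.96 for KIF5C, -1.36 for KIF21B, -1.16 for KIF13B, -0.54 for KIF5B and -0.33 for KIF3B, and 0.52 for KIFC2, 0.62 for KIF1C and 0.88 for KIF17. In WT cells the KIF6 call was lost without 8 of the 12 libraries in turn and the KIF5B call without 6, with values of -0.55 to -0.37 and of -0.50 to -0.28.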

How the results depend on the processing

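The 133 gene results followed here were calls of named kinesins in the main tests, so that calls gained under an alternative are not counted. Of their 1914 values under the alternatives, 1813 kept their direction and call, 101 kept their direction but were no longer called, and 0 reversed. With a log2 fold change beyond 1 as well as an adjusted p below 0.05, the members called fell to 1 in recovered WT, 5 in recovered KO, 6 in treated WT and 5 in treated KO cells, of which 1, 4, 0 and 0 were mitotic kinesins that fell. The same rule left 1 member in each untreated genotype comparison, 0 in each genotype interaction, 4 in the WT and 8 in the KO stage interaction. For the genotype interaction in AID-DIvA cells, called for 1 member, DESeq2 called 2, no filter on low counts 7 and leaving out single libraries 0 to 3. For that in U2OS cells, also 1, DESeq2 called 2, no filter 2 and leaving out single libraries 0 to 9. The untreated genotype comparison in U2OS cells, with 4 called, gave 8 with all 4 groups in one fit and 1 to 22 with single libraries left out. The mitotic kinesins that fell in treated WT U2OS cells ranged from 6 to 11 as single libraries were left out. The cause of these shifts was not tested. Libraries with the same replicate number deviated together in no consistent way (correlations of -0.38 to 0.37), so the numbers were not taken as pairs, and with the number as a replicate block 0 members were called in either genotype interaction (KIF21B adjusted p = 0.095 and KIF17 0.0678, edgeR). The block also ended the calls of KIF18B between untreated U2OS genotypes (0.0676), KIF14 (0.0567) and KIF4A (0.0958) in treated WT U2OS cells, KIF13B in recovered KO cells, KIF15 between untreated AID-DIvA genotypes and KIF6 in the WT stage interaction. KIF2A and KIF24 counted as mitotic kinesins, and FPKM in place of TPM, changed no direction of a class in the treatment comparisons. Genes under 1 CPM, such as KIF12, KIF25 and KIF4B, are limited by depth.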
